A study of Mus musculus with 4 samples.

Results

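The Arf and Arl proteins are small GTPases that recruit coats, tethers and lipid-modifying enzymes to membranes. An exchange factor loads them with GTP, which fixes them on a membrane, and a GTPase-activating protein ends that state by stimulating GTP hydrolysis. Arf1 and its close relatives act mainly at the Golgi, Arf6 acts at the plasma membrane and endosomes and takes part in cell spreading and migration, and Arl proteins serve more specialised routes such as the traffic of cilium cargo. The RNAs of this family were followed through pseudopodia and cell bodies of NIH/3T3 cells, a mouse fibroblast line. Members were the probe sets whose single platform gene symbol begins with Arf or Arl and a digit, or with Arfgap, Arfgef, Arfip, Asap, Agap, Acap, Cyth or Arl2bp. They came to 36 genes of 18193, read by 81 probe sets of 45101 in all, of which 34945 have 1 symbol. The 19 other genes of the RefSeq gene table that carry such a symbol, among them Arl4a, Arl4c, Arl5a, Arl6, Arl8a, Arl8b and Arl13b, were not analysed here.

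All cells were serum-starved overnight, left to spread for 2 h on fibronectin over a porous support, and exposed for 1 h to 150 ng/ml lysophosphatidic acid (LPA) from below, and both fractions therefore share the starvation and the LPA. Both fractions were lightly fixed with 0.3% formaldehyde for 10 min, and the fixation was reversed at 70 C for 45 min. After fixation, protrusions that had grown through the pores (pseudopodia, 2 arrays) were scraped from the underside, and cell bodies (2 arrays) from the upper side. Calf serum is listed at 10% for both fractions alike. The comparison asks which RNAs are relatively more or less abundant in the protrusions. NIH/3T3 is a single line, cells without LPA were not analysed here, and each fraction was obtained by wiping the opposite face of the membrane. The labels say nothing of how the cultures behind the 2 replicates were kept apart, so the spread behind each p-value may be technical. Arrays of the same replicate number were scanned on the same day, and the replicate pair values below are thus within-day values.

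Each value is a MAS5 signal, the brightness of a probe set on an Affymetrix mouse array. Differences are log2 of pseudopodia over cell body ± SE, with n = 2 arrays per fraction throughout (1 array in each fraction per replicate pair), taken on log2(signal + 32) after scaling, which understates the change of dim probe sets. Tests are limma fits over all 22519 probe sets with a mean level at or above the median (termed kept), with Benjamini-Hochberg adjustment over all of them and a threshold of 0.05. The number of arrays limits the precision. The median signal of an array lay between 29.8 and 33.3. The check RNAs and markers that follow were each read by 1 probe set, where possible the kept one with the highest mean log2 signal. The 7 RNAs recalled as protrusion RNAs, a list chosen partly on these samples, were higher in pseudopodia (median 1.98). Of the 2 nuclear RNAs Neat1 was lower, at -2.17, and Malat1 stood at -1.39 and did not pass (limma adjusted p = 0.154). Neat1 had 2 kept probe sets and Malat1 had 6, and only those values are given here. Of 11 fibroblast markers 9 had a kept probe set, and Thy1 and Fap had none. The signal sums that follow take in every marker with a probe set, kept or not. Of the blood markers 2 of 8 were kept, and the sums were 323.7 to 370.3 in cell bodies and 241.7 to 289.3 in pseudopodia. Of the epithelial markers 4 of 8 were kept, Krt14 among them. Their sums were 2617 to 2986 in cell bodies and 2425.7 to 2843.4 in pseudopodia. Of the adipocyte and muscle markers 1 of 8 was kept, and the sums were 100.7 to 130.2 and 158.9 to 175.6. The kept one, Des, read 62.8 and 48.4 in cell bodies, against 99.8 and 84.3 in pseudopodia. None of these markers was listed at 0 on any array or passed the test, and their part in the results below was not tested.

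Of the 81 member probe sets, 59 were kept, from 31 genes. Arl11, Arl14, Arfgef3, Cyth4 and Asap3 had no kept probe set, and no array gave any of the 22 member probe sets left out a signal above 59.4. Within the kept 59, 1 was higher in pseudopodia (Arl3) and 1 lower (a probe set of Arfgap3), and 57 did not pass, where 1.08% of all kept probe sets were higher and 3.32% lower. Counted together the 2 make 3.39% of the kept members against 4.40% of all kept probe sets, so the share called among members is near the background. At least 1.5-fold apart in all 4 array pairs, a rule of size with no test, were 2 member probe sets higher (Arl3 and Arf3) and 1 lower (Arfgap3), against 2.79% and 7.86% of all kept probe sets. The difference was under 0.5 in size in 49 members, or 83.1%, against 66.5% of all kept probe sets. The median member stood at -0.05 and the median kept probe set at -0.03. With each gene taken by its main probe set, meaning the kept one with the highest mean log2 signal, 15 of 31 genes had positive values and 16 negative ones, and the median was near 0. The median mean log2 signal was 9.98 for members and 8.54 for all kept probe sets, and the part of signal level in the size of the differences was not tested. Pooled material of this kind cannot tell apart fewer protrusions and less RNA per protrusion, since every array was scaled to the same total.

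**Figure D1:**
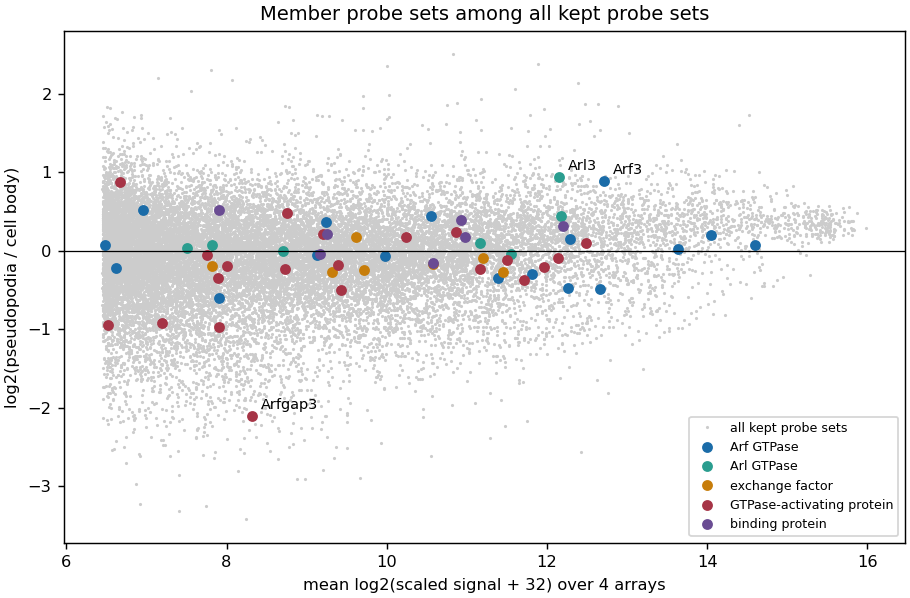
Each point is a kept probe set, with its mean log2(scaled signal + 32) over the 4 arrays on the horizontal axis and its log2 difference of pseudopodia over cell body on the vertical axis; members are coloured by role and all others are grey. Most of the 59 members lie within 0.5 of 0, and the 3 that were at least 1.5-fold apart in all array pairs are named.

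The clearest rise was that of Arl3, a GTPase that releases lipidated proteins from their carriers for delivery to the cilium. Its only probe set, 1450706_a_at, read 1645.9 and 1603.4 in the cell body arrays against 2756.5 and 3546.8 in the pseudopodia arrays. Both pseudopodia arrays were above both cell body arrays. The difference was 0.94 ± 0.19, a fold of 1.92 (limma adjusted p = 0.0430), with 0.74 in the replicate 1 pair and 1.14 in the replicate 2 pair. The call lies close to the threshold: it ended when arrays were scaled on the hybridization controls (0.61, adjusted p = 0.138), with a pseudocount of 1 (0.94, adjusted p = 0.0524), without the filter on dim probe sets (adjusted p = 0.0824) and without the variance trend (adjusted p = 0.129). Without cell body replicate 1 or 2 it ended too (adjusted p = 0.315 and 0.287), as did every other call on the array. Over all alternatives the adjusted p of Arl3 ranged from 0.00054 to 0.315, and it was 0.00065 with the replicate number as a block. Arl2, the GTPase most closely related in function to Arl3 and a partner of tubulin folding, gave 1628.0 and 1390.4 in cell bodies, and in pseudopodia 1651.2 and 1306.7. The fractions overlapped, and the difference was -0.03 ± 0.21 (adjusted p = 0.947). Arl2bp, a binding protein of both Arl2 and Arl3, had a difference between theirs and gave 2123.1 and 2052.5 in cell bodies, 2706.5 and 2512.5 in pseudopodia. Both pseudopodia arrays of Arl2bp were above both cell body arrays, yet the difference of 0.32 ± 0.17 did not pass (adjusted p = 0.322), nor did that of its second probe set at 0.39 ± 0.20 (adjusted p = 0.307).

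Among the other Arl GTPases, Arl1, which recruits golgins to the trans-Golgi, stood at 0.44 ± 0.20 on its main probe set (adjusted p = 0.243). That probe set gave 2056.1 and 1869.0 in cell bodies, against 3053.5 and 2338.7 in pseudopodia, with no overlap. The second probe set of Arl1 overlapped and stood at 0.10, with 0.34 in the replicate 1 pair and -0.15 in the replicate 2 pair. The main probe sets of Arl15 and Arl16 stood at 0.08 and near 0, and their replicate pairs differed in sign. In all, 1 of the 7 kept Arl probe sets passed, and 5 of the 7 changed sign between the replicate pairs, against 30.6% of all kept probe sets.

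Arf3, a Golgi GTPase very similar to Arf1, had a difference near that of Arl3 on its main probe set and smaller ones on the others. Probe set 1437331_a_at gave 2567.8 and 2319.7 in cell bodies, and in pseudopodia 3885.8 and 5278.4, with no overlap. The difference was 0.89 ± 0.20, a fold of 1.85, and missed the threshold narrowly (limma adjusted p = 0.0526). It passed with the replicate number as a block (adjusted p = 0.000977), with a pseudocount of 64 (adjusted p = 0.0482), and when each gene was represented by 1 probe set and p adjusted over genes, a setting chosen after seeing the data (adjusted p = 0.0440). It passed in 5 of 15 alternatives, among them the fits without pseudopodia replicate 1 or 2, which leave a lone array in that fraction. Among those it did not pass were scaling on the hybridization controls (0.56, adjusted p = 0.154) and quantile normalization (0.77, adjusted p = 0.0633). It also missed the threshold without the filter on dim probe sets (adjusted p = 0.111) and without the variance trend (adjusted p = 0.148). With the block 2 members were higher, against 6.84% of all kept probe sets, and 1 lower, against 11.3%. With 1 probe set per gene 2 members were higher and none lower, against 1.82% and 3.44% of all genes. Over all alternatives the adjusted p of Arf3 ranged from 0.000428 to 0.316. The second probe set of Arf3, 1423973_a_at, read 2407.6 and 2301.3 in cell bodies. In pseudopodia it read 3662.3 in replicate 1 and 1864.4 in replicate 2, above the cell bodies on 1 array and below them on the other. Its difference was 0.15 ± 0.30 (adjusted p = 0.817). In the replicate 1 pair these probe sets of Arf3 gave nearly the same difference, 0.59 and 0.60, and in the replicate 2 pair they gave 1.18 and -0.30. The 3 other kept probe sets of Arf3 stood at -0.06, 0.52 and 0.08 and did not pass.

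**Figure D2:**
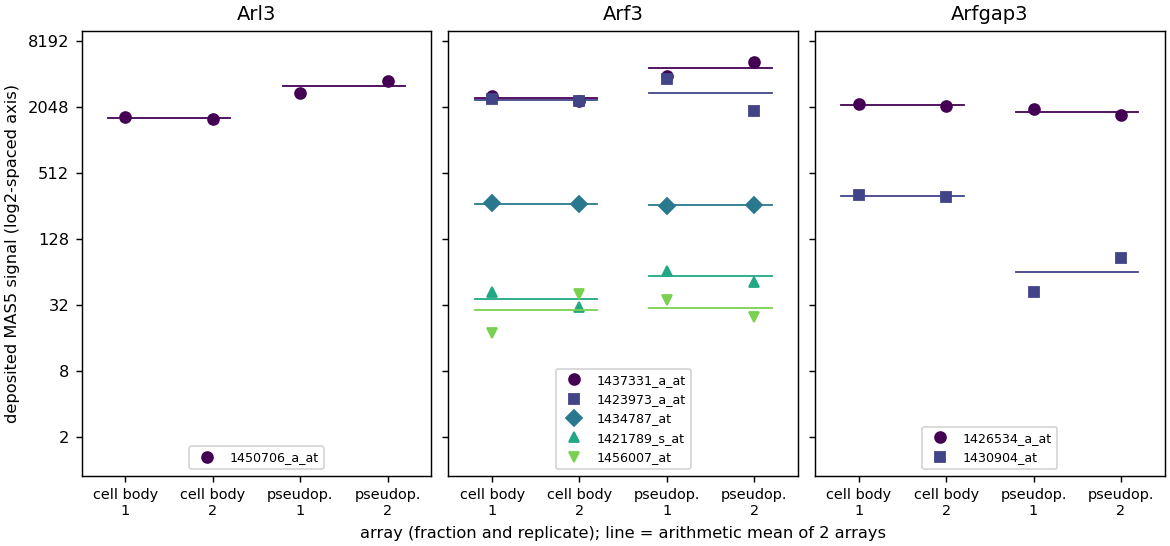
Deposited MAS5 signals, on a log2-spaced axis, of every kept probe set of Arl3, Arf3 and Arfgap3 on the 4 arrays; markers distinguish the probe sets and lines give the arithmetic mean of the 2 arrays of a fraction. The probe set of Arl3 and the main one of Arf3 lie higher on both pseudopodia arrays, the second of Arf3 is split between them, and probe set 1430904_at of Arfgap3 falls to 42.1 and 86.4 while its main probe set stays between 1721.1 and 2187.8.

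The other Arf GTPases showed no difference past the test. Arf1, which recruits the COPI coat and Golgi adaptors, gave 12193.1 and 11925.6 in cell bodies, against 13226.8 and 12157.1 in pseudopodia on its main probe set, a difference of 0.07 ± 0.13 (adjusted p = 0.801). The fractions overlapped on that probe set. Arf6, the plasma membrane GTPase, gave 7508.6 and 8347.7 in cell bodies, and in pseudopodia 7688.5 and 10707.1 on its main probe set. Those arrays overlapped too, and the difference was 0.20 ± 0.19 (adjusted p = 0.596). Arf4, which sorts cargo at the Golgi, stood at 0.03 ± 0.18, reading 6397.8 and 6192.7 in cell bodies, against 7325.7 and 5611.8 in pseudopodia. Arf2, a rodent relative of Arf1, stood at -0.06 ± 0.23. Arf5, a Golgi Arf with 1 probe set, stood at -0.35 ± 0.41 (adjusted p = 0.672), with 1717.2 and 1297.6 in cell bodies, and in pseudopodia 1897.0 and 714.1. Its pseudopodia arrays were the highest and the lowest of the 4, and without pseudopodia replicate 1 the difference was -1.05 (adjusted p = 0.00263), without pseudopodia replicate 2 it was 0.34 (adjusted p = 0.386).

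The probe sets of a single Arf gene lay closer together in the first pair of arrays than in the second. For Arf1 both kept probe sets gave differences of 0.03 to 0.12 in the replicate 1 pair, but 0.03 and -0.96 in the replicate 2 pair. Probe set 1420920_a_at of Arf1 read 3051.4, 2688.3 and 3107.1 on the first 3 arrays (both cell bodies and pseudopodia replicate 1) and 1371.1 in pseudopodia replicate 2. For Arf6 the 3 kept probe sets ranged from 0.03 to 0.51 in the first pair and from -1.02 to 0.36 in the second. Here 1418823_at read 4383.0 and 3344.8 in cell bodies, 4491.9 in pseudopodia replicate 1 and 1646.9 in pseudopodia replicate 2. For Arf4 the ranges were 0.02 to 0.57 and -0.62 to 0.32, and for Arf2 they were 0.12 to 0.30 and -1.36 to -0.25. In each of these genes pseudopodia replicate 2 was the low array on at least 1 probe set.

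Of the 17 kept Arf GTPase probe sets, 8 had their lowest signal on pseudopodia replicate 2 and 1 on pseudopodia replicate 1. Over all kept probe sets these arrays were lowest in 28.9% and 26.0%. The spread between probe sets of a gene was wider in the replicate 2 pair in 11 of the 18 member genes with several kept probe sets, or 61.1%, which is near the 60.4% of all 5035 such genes. The median spread of those member genes was 0.43 in the first pair and 0.90 in the second, against 0.50 and 0.69 over all such genes. Beside this stands a sign of RNA integrity, the signal ratio of the 3' to the 5' beta-actin control: it was 1.55 and 1.89 in cell bodies, 1.77 in pseudopodia replicate 1 and 3.41 in pseudopodia replicate 2. The same ratio of Gapdh lay between 0.919 and 1.01 on the 4 arrays. The part of RNA integrity in these differences was not tested, and where each probe set lies along its transcript was not analysed here.

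**Figure D3:**
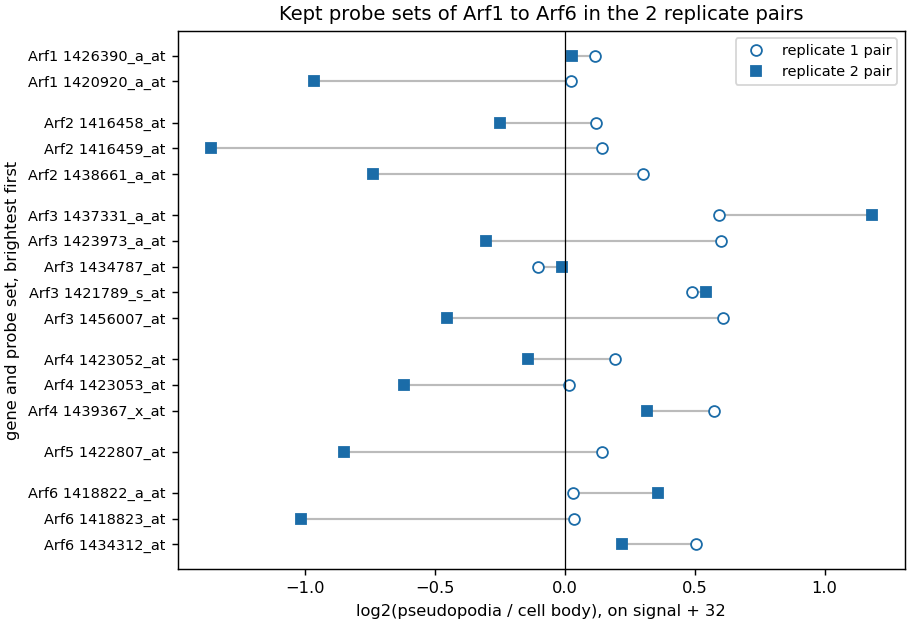
Log2 differences of pseudopodia over cell body for the 17 kept probe sets of Arf1 to Arf6, in the replicate 1 pair (open circles) and the replicate 2 pair (filled squares), with probe sets of a gene ordered by their summed signal. In the replicate 1 pair the values lie between -0.10 and 0.61, and in the replicate 2 pair they spread from -1.36 to 1.18.

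Of the exchange factors, which switch Arf proteins on, none of the 7 kept probe sets passed. Their median was -0.20, and 6 of the 7 had negative values, against 11777 of all 22519 kept probe sets. Cyth3, a cytohesin that responds to phosphoinositides and activates Arf6 at the plasma membrane, had the largest difference of the group. It gave 1505.1 and 1536.7 in cell bodies, against 1410.2 and 1117.3 in pseudopodia. Both pseudopodia arrays were below both cell body arrays, and the difference was -0.27 ± 0.20 (adjusted p = 0.472). Cyth1 stood at -0.25 ± 0.22 and Cyth2 at -0.09 ± 0.19, with signals of 345.8 to 484.4 and 1103.6 to 1294.9 over the 4 arrays. Arfgef2, a large exchange factor of the trans-Golgi and endosomes, stood at -0.16 and -0.27 on its kept probe sets. The related Arfgef1 was the exception in sign, at 0.18 ± 0.22 (adjusted p = 0.695), with 360.3 and 346.2 in cell bodies, and in pseudopodia 440.2 and 365.2. The arrays did not overlap in 1 higher and 3 lower of these 7 probe sets, against 24.8% higher and 28.2% lower over all kept probe sets.

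GTPase-activating proteins, which switch Arf proteins off, were the largest group, with 21 kept probe sets of 11 genes. Of these probe sets 15 had negative values and 6 positive ones, against 11777 negative and 10742 positive of all 22519 kept probe sets. The median was -0.20, and 1 passed, as lower. It was probe set 1430904_at of Arfgap3, a Golgi GTPase-activating protein that works with the COPI coat. This probe set gave 325.5 and 307.1 in cell bodies, against 42.1 and 86.4 in pseudopodia. The fractions were far apart on every array, and the difference was -2.11 ± 0.32, 4.31-fold lower in pseudopodia (limma adjusted p = 0.0242). It was -2.56 in the replicate 1 pair and -1.66 in the replicate 2 pair. Over all alternatives its adjusted p ranged from 3.63e-06 to 0.247. The call ended without the filter on dim probe sets (adjusted p = 0.0583), without the variance trend (adjusted p = 0.0702), and without cell body replicate 1 or 2 (adjusted p = 0.247 and 0.211). The main probe set of Arfgap3, 1426534_a_at, gave no difference past the test, with 2187.8 and 2072.9 in cell bodies, and in pseudopodia 1970.5 and 1721.1. Its difference was -0.21 ± 0.18 (adjusted p = 0.551). Differences of the Arfgap3 probe sets lay 1.90 apart, the widest spread of any member gene. A spread over 1 was found in 2 of the 18 member genes with several kept probe sets, Arfgap3 and Acap2, or 11.1%, against 19.9% of all such genes.

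Agap2, of the family whose members join a GTPase-like domain to the GTPase-activating one, had the lowest value of the group by main probe set. It read 51.3 and 44.3 in cell bodies, against 10.4 and 25.1 in pseudopodia, without overlap, and the difference of -0.95 ± 0.41 did not pass (adjusted p = 0.226). These signals are dim, all below the 59.4 that a member probe set left out reached. Agap3 gave 422.0 and 365.4 in cell bodies, and in pseudopodia 321.0 and 231.9, without overlap, at -0.50 ± 0.25 (adjusted p = 0.287). Its other kept probe set overlapped and stood at -0.20, with 0.12 in the replicate 1 pair and -0.51 in the replicate 2 pair. Agap1 pointed the other way, with 3 kept probe sets at 0.24, 0.21 and 0.48, none past the test. Acap1 had the highest value, 0.87 ± 0.55 (adjusted p = 0.399), on a probe set that read 50.0 and 5.3 in cell bodies, against 49.5 and 56.1 in pseudopodia. That value rests on cell body replicate 2: without it the difference was 0.06. Acap2, which acts on Arf6, stood at 0.18 on its main probe set and at -0.92 ± 0.46 on the other (adjusted p = 0.293).

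Asap1 is a GTPase-activating protein found at focal adhesions and podosomes. Its main probe set gave 2323.4 and 2279.9 in cell bodies, and in pseudopodia 2132.0 and 2205.9, a difference of -0.09 ± 0.17 (adjusted p = 0.816). A second probe set of Asap1 stood at -0.38 and the remaining one at -0.97, the latter with 171.2 and 134.1 in cell bodies, against 27.2 and 154.2 in pseudopodia. Asap2 stood at -0.24. Arfgap1, which senses curved Golgi membrane, stood at -0.12 ± 0.20. Arfgap2, which like Arfgap3 works with COPI, ranged from -0.34 to 0.09 on 4 probe sets, none past the test, and Acap3 stood at -0.19. Over the 21 probe sets the arrays did not overlap in 2 higher and 9 lower ones. As a share of the group this is 9.52% and 42.9%, beside the 24.8% and 28.2% of all kept probe sets, and no test of this difference was run.

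The direction of these small differences depends on the scaling. With arrays scaled on the hybridization controls, which moved the median of all kept probe sets to -0.32, 49 of the 59 members had negative values, against 33 in the fit reported here and 32 after quantile normalization. Values of the regulators near -0.20 are therefore read relative to a median kept probe set at -0.03.

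**Figure D4:**
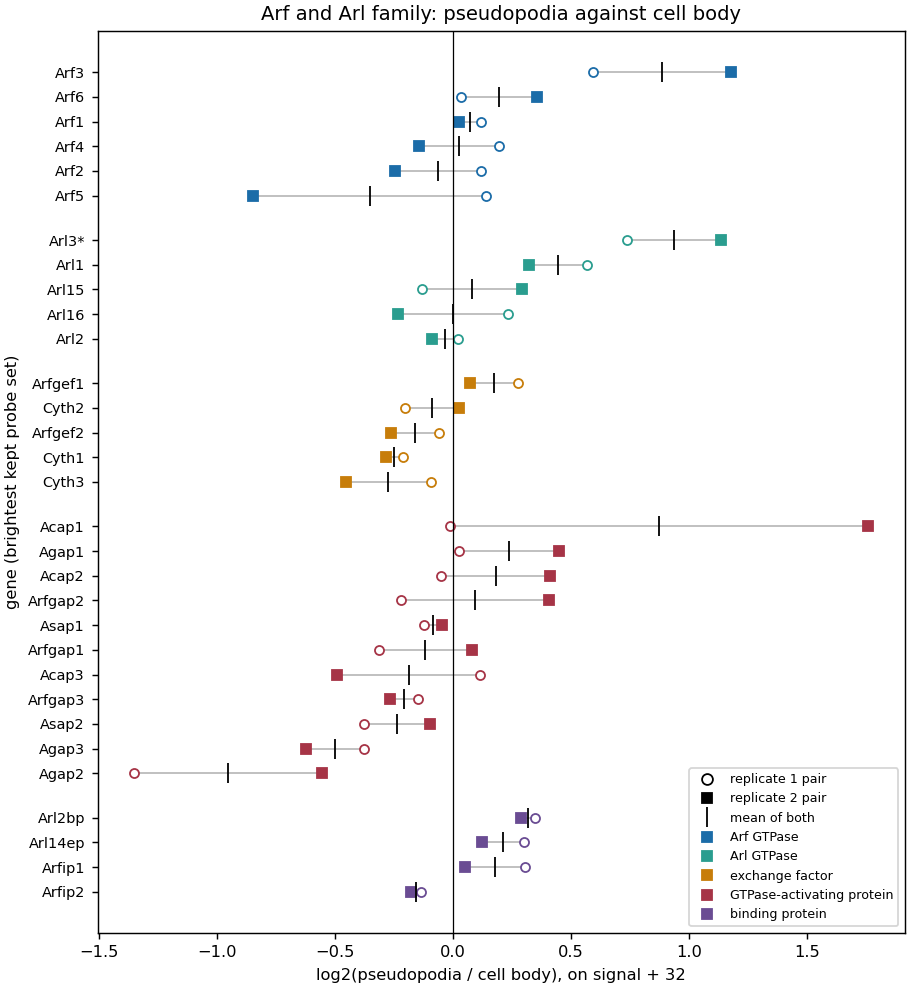
Log2 differences of pseudopodia over cell body for the 31 member genes with a kept probe set, each by its main one, grouped by role; open circles are the replicate 1 pair, filled squares the replicate 2 pair and ticks their mean, and an asterisk marks the gene with an adjusted p under 0.05. Arl3 and Arf3 stand at 0.94 and 0.89 with both pairs on the same side, and most other genes lie within 0.5 of 0.

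Of the 7 kept probe sets of the binding proteins none passed, and each had the same sign in both replicate pairs, positive in 5 and negative in 2. Besides Arl2bp, the positive ones were Arl14ep at 0.21 ± 0.22 and 0.52 ± 0.29 on its kept probe sets, and Arfip1, an arfaptin that binds Arl1 and senses membrane curvature, at 0.18 ± 0.19. Arfip1 gave 893.7 and 967.0 in cell bodies, and in pseudopodia 1110.1 and 1002.7. Its pseudopodia arrays were both above the cell bodies by a small margin. Arfip2, the other arfaptin, gave 822.9 and 753.3 in cell bodies, against 748.3 and 664.5 in pseudopodia. It lay on the other side of 0, at -0.16 ± 0.20 (adjusted p = 0.705). Of all kept probe sets, 33.0% were higher and 36.4% lower in both pairs, so a shared sign is common, and no test of this difference was run.

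The wider Arf and Arl pathway was read from a list of 52 further genes: other GTPases of the family, exchange factors, GTPase-activating proteins and effectors. A kept probe set was found for 45 of them, and by the main one none was higher and none lower by the test (limma). An unadjusted p under 0.05 was found for 4 of the 45. Over all 10962 genes by main probe set, 142 were higher, 276 lower, and 2299 had an unadjusted p under 0.05. The median of the 45 further genes was 0.04. Counted by all of their 80 kept probe sets, as the members were, 2 passed as lower and none as higher, or 2.50% lower against 3.32% of all kept probe sets. Neither was the main probe set of its gene, and both are named after their values were seen.

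The first was 1425362_at of Agfg2, which carries an Arf GTPase-activating domain. It read 539.9 and 632.2 in cell bodies, against 95.9 and 210.0 in pseudopodia. The fractions did not overlap, and the difference was -1.92 ± 0.34 (limma adjusted p = 0.0319), while the main probe set of Agfg2 stood at -0.07 ± 0.25 (adjusted p = 0.905). The other was 1426009_a_at of Pip5k1a, a phosphoinositide kinase stimulated by Arf6. It read 232.5 and 242.2 in cell bodies, and in pseudopodia 97.7 and 94.3. Here too the fractions lay apart, with a difference of -1.18 ± 0.23 (limma adjusted p = 0.0409), while the main probe set of Pip5k1a stood at -0.35 and the others at -0.59 and 0.03, none past the test. Both calls ended without the filter on dim probe sets (adjusted p = 0.0708 for Agfg2 and 0.0980 for Pip5k1a), without the variance trend (0.0945 and 0.0845) and without either cell body array, and that of Pip5k1a also after quantile normalization (0.0652). Over all alternatives the adjusted p ranged from 1.98e-06 to 0.254 for Agfg2 and from 0.00323 to 0.298 for Pip5k1a.

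Closest to the threshold by main probe set was Mapk8ip3 (JIP3), a motor adaptor that binds active Arf6. It gave 434.6 and 229.6 in cell bodies, and in pseudopodia 98.4 and 111.4, with no overlap. The difference was -1.46 ± 0.32, a fold of 2.76 towards the cell bodies, with an adjusted p of 0.0500012, just above the threshold. It passed when probe sets were kept and chosen by mean signal in place of mean log2 signal (adjusted p = 0.0478), with the replicate block (adjusted p = 0.00109) and with 1 probe set per gene and p adjusted over genes (adjusted p = 0.0363). It also passed on hybridization controls (adjusted p = 0.0284) and with a pseudocount of 64 (adjusted p = 0.0473). It passed in 7 of 15 alternatives, among them the fits without pseudopodia replicate 1 or 2, which leave a lone array in that fraction. Among those it did not pass were quantile normalization (adjusted p = 0.0719), a pseudocount of 1 (adjusted p = 0.0583) and the fit without the filter on dim probe sets (adjusted p = 0.114). Over all alternatives the adjusted p of Mapk8ip3 ranged from 0.00109 to 0.370. Its other kept probe sets stood at -1.18 and -0.04.

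The highest values among these further genes did not pass. Sar1b, the GTPase of the COPII coat, gave 2787.0 and 3079.2 in cell bodies, against 4028.7 and 5013.6 in pseudopodia. The arrays did not overlap, and the difference of 0.61 ± 0.18 had an adjusted p of 0.0996, or 0.00658 with the replicate block. The related Sar1a stood at -0.26 on its main probe set, which read 1561.5 in pseudopodia replicate 2 and 2350.5 to 2629.4 on the other arrays. Golga4, a golgin bound by Arl1, gave 211.0 and 246.5 in cell bodies, and in pseudopodia 397.6 and 427.3, at 0.81 ± 0.22 (adjusted p = 0.0832, or 0.0148 with the replicate block). The other kept probe sets of Golga4 stood at 0.10 and 0.08. Pip5k1b, a kinase that makes the phosphoinositide through which Arf6 acts, was named after its value was seen, and stood at 0.90 ± 0.31 (adjusted p = 0.145). Its only kept probe set is dim, with 39.2 and 38.5 in cell bodies, against 74.3 and 100.5 in pseudopodia.

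Exchange factors outside the symbol rule, 8 kept genes, ranged from -0.38 to 0.38 by main probe set. Iqsec1, an exchange factor of Arf6, lay at the low end, with 1563.8 and 1516.7 in cell bodies, against 1117.7 and 1253.1 in pseudopodia, and did not pass (-0.38 ± 0.19, adjusted p = 0.288). The next by the size of its statistic was Iqsec2, at 0.38 ± 0.29, with its other kept probe set at -0.53. The 11 kept GTPase-activating proteins outside the rule ranged from -0.38 to 0.38 by main probe set as well, with the other probe set of Agfg2 at -1.92. Git2 stood at 0.04 by main probe set, while its dim probe sets 1459283_at and 1445037_at stood at -1.07 and -0.76, neither past the test. Smap1, which acts on Arf6 and clathrin-coated membranes, had the highest value by main probe set at 0.38 ± 0.20 (adjusted p = 0.311), with others at -0.50 and -0.45, and Adap1 the lowest.

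**Figure D5:**
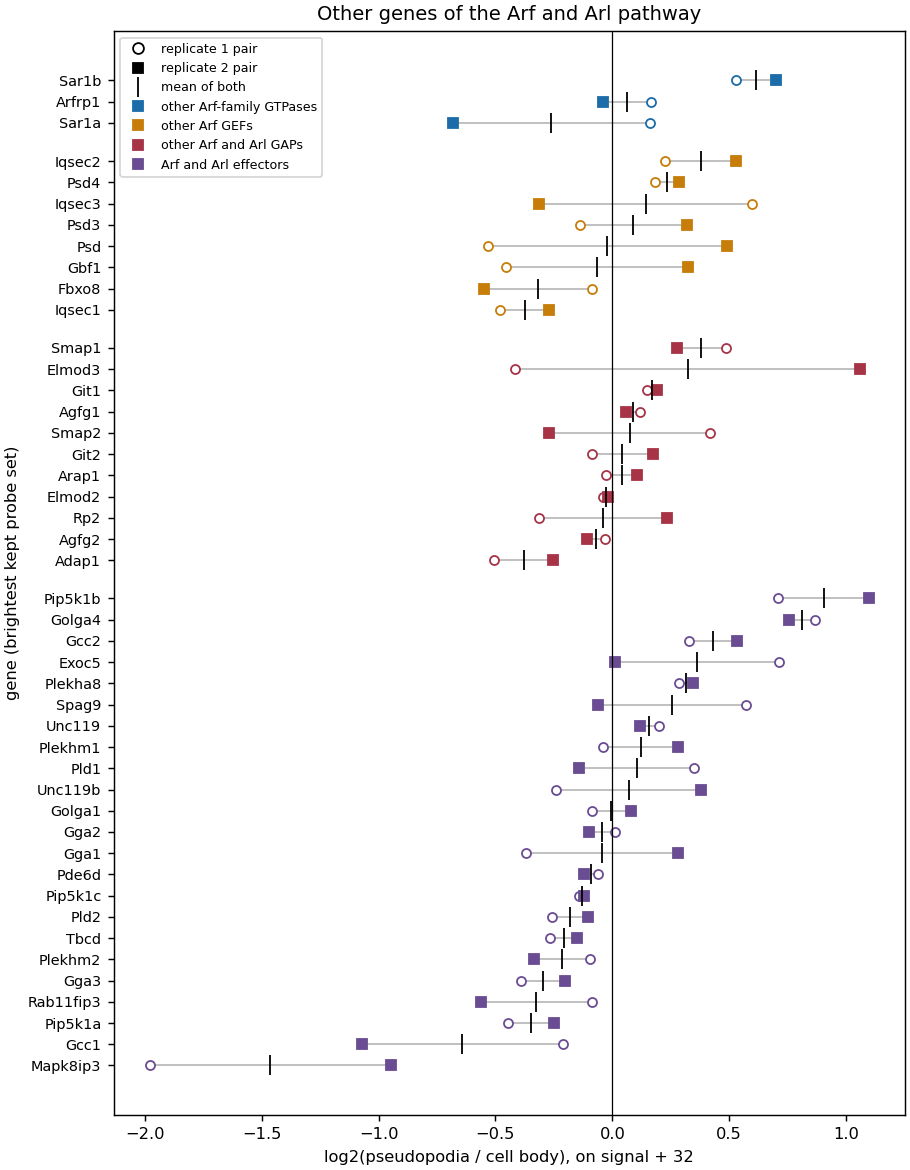
Log2 differences of pseudopodia over cell body for 45 further genes of the Arf and Arl pathway, each by its main probe set, grouped by class; open circles are the replicate 1 pair, filled squares the replicate 2 pair and ticks their mean. Mapk8ip3 lies lowest at -1.46, Sar1b, Golga4 and Pip5k1b lie between 0.61 and 0.90 with both pairs above 0, and no main probe set passed the test. The probe sets of Agfg2 and Pip5k1a that passed are not main ones and are not drawn.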

How the data were processed

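RNA of 2 pseudopodia and 2 cell body samples was measured on 4 arrays. The authors deposited a linear intensity for each probe set, made with MAS5 per the submitters' processing notes, with no version or detection calls in the sources used here. The trimmed mean (2% at each end) was 250.0 on all arrays, so differences are relative to each fraction's total. Gene names came from the platform annotation, and all 36 member symbols matched the RefSeq gene table. Replicate numbers mark a shared scan day and project code, per the file headers; the replicate differences of both fractions correlated with r = 0.243 over probe sets.

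Rescaled signals (trimmed mean 500) were taken as log2(signal + 32). Probe sets with a mean log2 level at or above the median were kept and fitted with limma 3.58.1 (variance trend, two-sided, R 4.3.3), without a block. This reading of the mean replaced that of the mean signal after results were seen, and the latter is an added alternative. The fit has 2 residual and 5.56 prior degrees of freedom, and 1 and 16.8 with the replicate block. An exact permutation test of 2 against 2 arrays cannot go below 0.333. The fit was also run on simulated arrays with normal noise drawn from its own fitted variances. Such a run checks the code and cannot test whether those assumptions hold here, and it held no effect of scan day or RNA integrity. The members, gene lists, named genes (all called or 1.5-fold members, Arf1 to Arf6, up to 4 genes of each role and 2 of each further class by moderated statistic; other members are named to account for them) and alternatives were chosen with earlier results of these data known. Alternatives covered scaling, pseudocount, filter, variance model, block, arrays and probe set class. No sequence is shown, as those of probes, transcripts and proteins were not used here.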

Additional observations from a re-analysis of the deposited data

How the results depend on the processing

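The 2 called member probe sets became 1 with scaling on the hybridization controls, with a pseudocount of 1, within the 11260 probe sets of highest mean (which drops the probe set of Arfgap3) and with single-transcript probe sets only (which drop that of Arl3). In that order the called share of members was 1.69%, 1.69%, 2.33% and 2.78%. The share of all probe sets tested was 6.93%, 2.90%, 6.95% and 6.24%, and 4.40% in the fit reported here. They became 0 of 81 without the filter, against 0.391% of all 45037 probe sets. Without the variance trend they became 0, and limma called no probe set of the whole array. With the replicate block there were 3, or 5.08%, against 18.1% of all kept probe sets. Arf3 was the one added, and the block changed no other call of a member. Leaving out 1 array at a time gave 5 to 11 members past 1.5-fold in the remaining pairs (1 with all arrays and single-transcript probe sets only). With an array left out fewer pairs have to meet this rule, which makes it easier to pass. The share of all kept probe sets past it was not counted in these fits, so the rise cannot be read as a property of members. Each such fit leaves a lone array assumed to vary like the other fraction: without either cell body array none was called, on the whole array, and without pseudopodia replicate 1 or 2 there were 9 and 7 members, or 15.3% and 11.9%, against 17.6% and 12.9% of all kept probe sets. The median of members, -0.05, moved to -0.36 on hybridization controls; with 1 array left out it ranged from -0.093 without pseudopodia replicate 1 to 0.12 without pseudopodia replicate 2. Of the further pathway genes, 0 were called by main probe set. There was 1 (lower) on hybridization controls and with a pseudocount of 64. The same count came with 1 probe set per gene and with probe sets kept and chosen by mean signal, both chosen after seeing the data. With the replicate block 3 were called (2 higher, 1 lower), against 845 higher and 1065 lower of all 10962 genes. Filtering by mean signal was the first reading of the plan, was replaced after its results were seen, and left the members at 2 called of 58 kept. Calls of Arl3, Arf3 and Mapk8ip3 lie so near the threshold that such choices change them. Without detection calls, signals near the filter have no stated limit of detection.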
